A study of Citrus unshiu with 2 samples.

Results

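The genes described here are WRI1 and 9 genes of fatty acid synthesis and desaturation in stems of Citrus unshiu, the satsuma mandarin. They were chosen by gene identifier and deposited description, with their values in these libraries already known, and they are 10 of the 23159 genes measured. The list holds the regulator WRI1, 1 subunit of plastid acetyl-CoA carboxylase (biotin carboxylase 2), 4 3-oxoacyl-ACP synthases (1 of type I and 3 of type II), 3-oxoacyl-ACP reductase 4, the dehydratase FabZ, enoyl-ACP reductase and the desaturase FAD2. FAD2 works in the endoplasmic reticulum and WRI1 in the nucleus, so 8 of the 10 are plastid fatty acid synthesis enzymes.

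Mature stems of shoots were sampled at day 75 from wild-type trees under light drought and from wild-type trees with normal water as the control. All trees were kept under a rain shelter with confined roots, 20 trees were set aside for each treatment, and in light drought the soil dried naturally until it reached about 15% moisture. Each group has 1 RNA-seq library, with 31760704 reads in genes for light drought and 32856618 for the control, and how many trees went into a library is not stated. With 1 library a group, no difference below has a replicate check and no p-value was computed.

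In plants, fatty acids are built in plastids. Sucrose is broken down to pyruvate, pyruvate dehydrogenase makes acetyl-CoA, and acetyl-CoA carboxylase turns it into malonyl-CoA. A growing chain on acyl carrier protein (ACP) then passes through repeated rounds of condensation, reduction, dehydration and a further reduction. In Arabidopsis, WRINKLED1 (WRI1), a transcription factor with AP2 domains, is known as an activator of genes of late glycolysis, plastid pyruvate dehydrogenase and fatty acid synthesis, best studied in oil-storing seeds. The chains formed serve membranes, surface lipids and storage oil.

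WRI1 (Cs3g07310, chromosome 3, 10472152 to 10476678, plus strand, 6 exons) stood at 152 RPKM in light drought and 425 RPKM in the control. RPKM is the read number scaled to exon length and to all reads in genes of the library, so levels can be compared between genes. The gene ranked 448th of all genes in light drought and 118th in the control. On the log2 scale, with a pseudocount of 0.5 RPKM added to both values, the ratio of light drought over control was -1.48, and WRI1 fell by more than 2-fold. The reads behind it, 7315 in light drought and 21137 in the control, gave a 95% counting interval of the log2 RPKM ratio from -1.52 to -1.44. This interval is the exact conditional one, without the pseudocount, and it covers counting error only, not differences between trees. In a bulk sample, fewer cells of a type and less RNA per cell cannot be told apart.

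Among the 20 genes with a deposited AP2 domain, WRI1 had the highest level in both libraries. Domains were deposited only for 2568 genes titled as differential, so AP2 genes outside these were not compared. The second in the control was the ethylene-responsive transcription factor ERF023 (orange1.1t00506), at 6.37 RPKM in light drought and 12.5 RPKM in the control. The 3 named genes closest to WRI1 in their pair of log2 levels, over these 2 libraries only, were an alpha-glucan water dikinase (Cs7g09060), an acidic class II chitinase (Cs8g01810) and acyl carrier protein 1 (Cs9g05030). Their Euclidean distances to WRI1 were 0.47, 0.64 and 0.73 log2 units. The water dikinase, an enzyme that phosphorylates starch, stood at 170 RPKM in light drought and 312 RPKM in the control. The chitinase stood at 229 RPKM in light drought and 355 RPKM in the control.

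**Figure D1:**
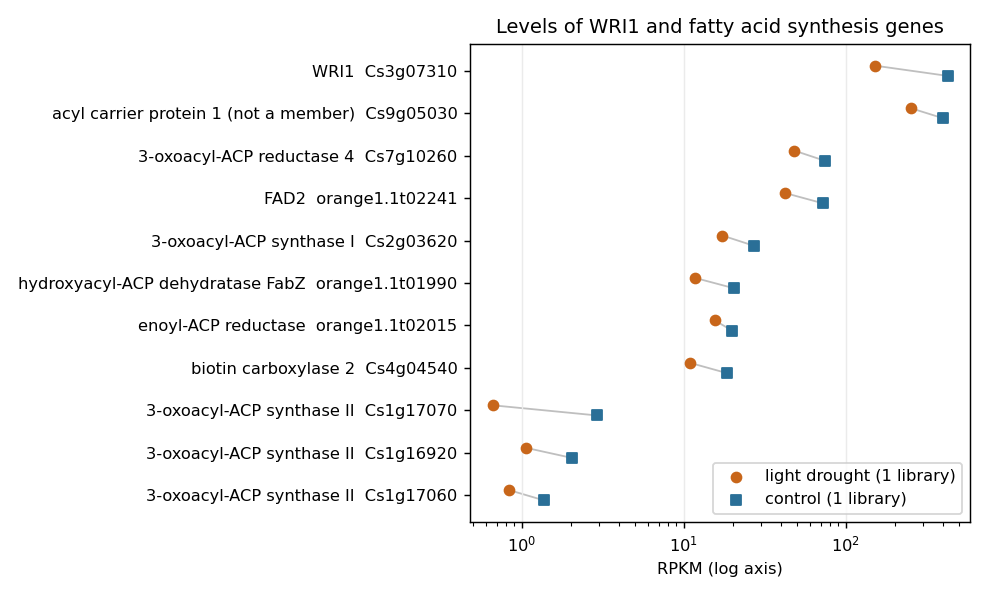
RPKM of the 10 members and of acyl carrier protein 1, on a log axis, with circles for the light drought library and squares for the control library. In each of the 11 genes the circle lies left of the square, from WRI1 at 152 against 425 RPKM to the synthase II model Cs1g17060 at 0.838 against 1.37 RPKM.

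Acetyl-CoA carboxylase makes the first committed step. Biotin carboxylase 2 (Cs4g04540, chromosome 4, 2662542 to 2670230), the subunit that loads carbon dioxide onto biotin, stood at 10.9 RPKM in light drought and 18.3 RPKM in the control. Its log2 ratio was -0.73, with a counting interval from -0.87 to -0.63. The biotin carboxyl carrier protein (Cs6g22090), which holds the biotin and is not one of the 10, stood at 4.95 RPKM in light drought and 10.5 RPKM in the control. It fell by just over 2-fold (log2 ratio -1.01, counting interval -1.30 to -0.87).

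The named enzymes of the elongation cycle all had lower levels in light drought, by less than 2-fold each outside the type II synthases. 3-oxoacyl-ACP synthase I (Cs2g03620, chromosome 2, 1671156 to 1674870), which condenses most rounds of the chain, stood at 17.3 RPKM in light drought and 27.0 RPKM in the control (log2 ratio -0.63, counting interval -0.75 to -0.54). 3-oxoacyl-ACP reductase 4 (Cs7g10260, chromosome 7, 6579341 to 6584614), of the first reduction, stood at 48.0 RPKM in light drought and 74.3 RPKM in the control (log2 ratio -0.63, counting interval -0.70 to -0.56). It was the most abundant enzyme of the 10 in both libraries.

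FabZ (orange1.1t01990, unplaced sequence, 31513583 to 31515760), the hydroxyacyl-ACP dehydratase, stood at 11.7 RPKM in light drought and 20.3 RPKM in the control (log2 ratio -0.76, counting interval -0.96 to -0.62). Enoyl-ACP reductase (orange1.1t02015, unplaced sequence, 31977362 to 31981268), which closes each round, stood at 15.5 RPKM in light drought and 19.8 RPKM in the control. Its log2 ratio of -0.34, with a counting interval from -0.48 to -0.23, was the nearest to 0 of the 10. Among biotin carboxylase 2, synthase I, reductase 4, FabZ and enoyl-ACP reductase, the level in light drought was 21.7% to 42.1% below the control. Of the 10 pairs that these 5 enzymes form, 6 had overlapping counting intervals, and the 4 that did not were the pairs with enoyl-ACP reductase.

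The carrier of the chain lay in the same range. Acyl carrier protein 1 (Cs9g05030), outside the 10, stood at 251 RPKM in light drought and 400 RPKM in the control (log2 ratio -0.67, counting interval -0.71 to -0.63). Relative to reductase 4 in the same library, it was 5.24 times as abundant in light drought and 5.38 times in the control. Synthase I was at 36.0% of the reductase in light drought and 36.3% in the control, and biotin carboxylase 2 at 22.7% in light drought and 24.7% in the control. FabZ was at 24.5% in light drought and 27.3% in the control. Enoyl-ACP reductase went the other way, at 32.3% of the reductase in light drought and 26.7% in the control, and so stood above FabZ in light drought and just below it in the control.

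The 3 gene models described as 3-oxoacyl-ACP synthase II, the type known for the step from palmitate to stearate, were low in both libraries. Cs1g17070 (chromosome 1, 20286774 to 20290591) stood at 0.662 RPKM in light drought and 2.92 RPKM in the control, from 21 reads in light drought and 96 in the control. It fell with a log2 ratio of -1.56, and its counting interval, without the pseudocount, ran from -2.90 to -1.45. Cs1g16920 (20148092 to 20169212) stood at 1.05 RPKM in light drought and 2.04 RPKM in the control (log2 ratio -0.71, counting interval -1.49 to -0.43). Cs1g17060 (20278722 to 20280789) stood at 0.838 RPKM in light drought and 1.37 RPKM in the control (log2 ratio -0.48, counting interval -1.42 to -0.02). The interval of Cs1g17070 overlapped that of Cs1g16920 by a small margin and ended just below that of Cs1g17060, and the intervals of Cs1g16920 and Cs1g17060 overlapped over most of their range.

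These 3 models lie on the minus strand within 142500 bases of chromosome 1. Cs1g16920 and Cs1g17070 share 1 RefSeq record, and reads may have been split between the copies. Their exon lengths match in part. Counted in transcript order, Cs1g16920 with 13 exons shares 6 exon lengths with Cs1g17060 (9 exons) and 6 with Cs1g17070 (8 exons), and Cs1g17060 shares 4 with Cs1g17070. All 3 contain consecutive exons of 96, 46 and 80 bases, a run found in 7 of the 23159 gene models. Of the other 4 models with the run, which carry no description in the files, Cs1g16890, Cs1g16900 and Cs1g17040 lie near these genes on chromosome 1 and reached at most 1.29 RPKM in light drought and 1.52 RPKM in the control. The fourth, Cs4g07000 on chromosome 4, stood at 53.1 RPKM in light drought and 44.0 RPKM in the control (log2 ratio 0.27), far above the 3 described models. It shares 9 exon lengths in order with Cs1g16920, as does Cs1g16900, against 6 for each of the other 2 described models. Since the files give Cs4g07000 no name, whether it encodes a synthase II is not known here, and the low levels above hold for the 3 described models and not for synthase II as a whole. Summed over the 3 described models there were 97 reads in light drought and 239 in the control, a log2 ratio of -1.25 after scaling to the library totals, with a counting interval from -1.61 to -0.91. As 1 gene of their joint length they stood at 0.875 RPKM in light drought and 2.08 RPKM in the control, and the ratio with the pseudocount was -0.91, under 2-fold on that scale. The 12 models between Cs1g16920 and Cs1g17060 included 10 with at least 1 RPKM in either library. None of those 10 fell 2-fold on the scale with the pseudocount, where their log2 ratios ran from -0.93 to 0.37. The lowest was Cs1g17040, one of the models with the exon run, with 9 reads in light drought and 31 in the control. Its log2 ratio without the pseudocount was -1.74, past 2-fold, with a counting interval from -2.99 to -0.63.

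**Figure D2:**
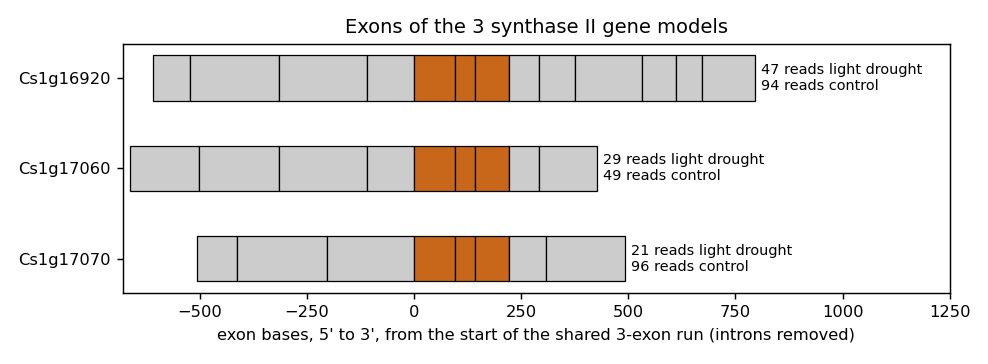
Exons of the 3 synthase II gene models drawn to scale in bases, 5′ to 3′, with introns removed and aligned at the shared run of 96, 46 and 80 bases (orange). Reads of the light drought and control libraries are printed beside each model, from 21 against 96 in Cs1g17070 to 47 against 94 in Cs1g16920.

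FAD2 (orange1.1t02241, unplaced sequence, 34042610 to 34046264, a model with 1 exon), which turns oleate into linoleate in the endoplasmic reticulum, stood at 42.2 RPKM in light drought and 71.9 RPKM in the control. Its log2 ratio was -0.76, with a counting interval from -0.82 to -0.72. Both desaturases described as chloroplastic lay on the other side of 0. The chloroplastic omega-6 desaturase (Cs8g17450), which desaturates lipids inside plastids, stood at 17.3 RPKM in light drought and 11.7 RPKM in the control (log2 ratio 0.54, counting interval 0.46 to 0.67). Fatty acid desaturase 4 (Cs4g10710), also of the chloroplast, stood at 7.93 RPKM in light drought and 4.66 RPKM in the control (log2 ratio 0.71), and it was picked after its values were seen. Monogalactosyldiacylglycerol synthase 2 (Cs4g05250), of galactolipid synthesis, stood at 1.14 RPKM in light drought and 0.560 RPKM in the control (log2 ratio 0.63 with the pseudocount and 1.03 without it). Cytochrome b5 domain-containing protein RLF (Cs7g01520) stood at 0.942 RPKM in light drought and 2.09 RPKM in the control (log2 ratio -0.84 with the pseudocount and -1.15 without it). Of the 5 genes of the desaturation and membrane lipid list, 3 had ratios below 0 and 2 above. None reached 2-fold on the scale with the pseudocount, but Cs4g05250 and Cs7g01520 did without it.

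All 10 members had log2 ratios below 0, and every counting interval ended below 0. At the 2-fold rule, 2 members fell, WRI1 and Cs1g17070, and none rose. Across the 15654 genes kept, with at least 1 RPKM in either library, 2.12% fell by 2-fold, 0.882% rose by 2-fold and 49.6% had ratios below 0. The 1231 kept genes with a name all come from a deposited table titled as holding differential genes. Of these 1231, 15.1% fell by 2-fold, 5.77% rose by 2-fold and 57.2% had ratios below 0. The members were chosen with this contrast known, so nothing is read from these shares. The median log2 ratio was -0.72 for the members, against 0.0024 for all kept genes and -0.25 for the named ones. Of the 15654 kept genes, 84 had a lower ratio than Cs1g17070, 103 a lower ratio than WRI1 and 2061 a lower ratio than enoyl-ACP reductase.

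The authors' deposited table gives statistics for 2 of the 10 and none for the other 8. In the authors' deposited table, WRI1 has a log2 fold change of -1.48 with a false discovery rate of 2.85e-10, and Cs1g17070 one of -2.14 with a false discovery rate of 2.03e-06. Genes with a log2 fold change below 0 in the authors' deposited table number 582, which is 2.51% of all genes. No cut on the false discovery rate was applied to this count. How a p-value was obtained from 1 library a group is not stated in the files or labels.

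**Figure D3:**
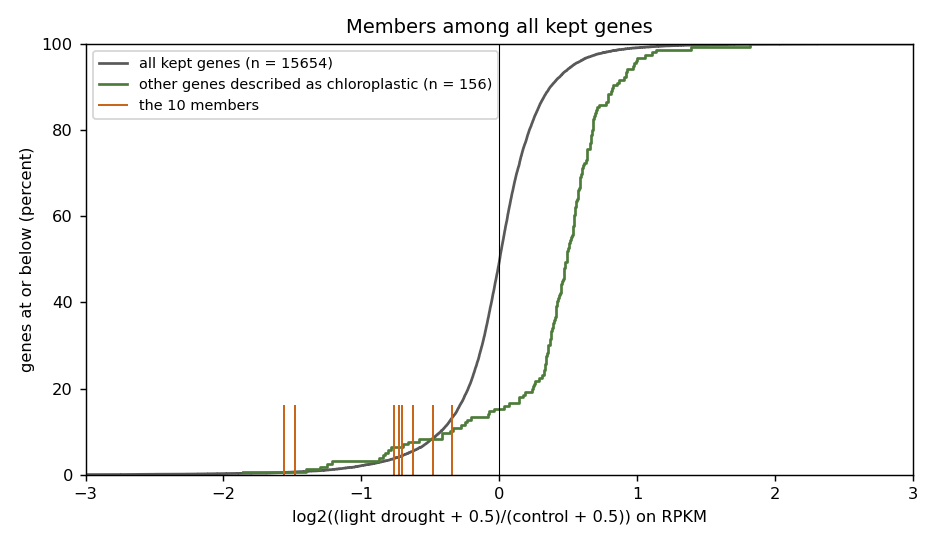
Cumulative share of genes, in percent, against the log2 ratio of light drought over control, for all 15654 kept genes and for 156 other kept genes described as chloroplastic, outside the fatty acid synthase and carbon supply lists. Short vertical lines mark the 10 members, from -1.56 to -0.34, all left of 0. Of the 156 chloroplastic genes, 132 lie right of 0. The members were chosen with their values known, so nothing is read from this contrast.

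Genes listed by description as carbon supply to plastid acetyl-CoA were mostly lower too. Of 16 kept genes in this list, 12 had ratios below 0, against 57.2% of named kept genes. By 2-fold, 5 fell, against 15.1% of named kept genes, and none rose. The list median was -0.64. The list also holds ATP-citrate synthase alpha (Cs7g08950, -0.52), of cytosolic acetyl-CoA. Sucrose synthase (Cs4g06850), which splits sucrose, stood at 48.6 RPKM in light drought and 128 RPKM in the control (log2 ratio -1.39, counting interval -1.44 to -1.36). Sucrose synthase 2 (Cs9g03980) stood at 1.99 RPKM in light drought and 4.95 RPKM in the control (log2 ratio -1.13).

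Pyruvate is made and used at the next steps. Plastidial pyruvate kinase 2 (Cs9g18710) stood at 11.6 RPKM in light drought and 25.2 RPKM in the control (log2 ratio -1.09), and a second pyruvate kinase (Cs8g03650) at 15.6 RPKM in light drought and 32.6 RPKM in the control (-1.04). The alpha-3 subunit of chloroplastic pyruvate dehydrogenase E1 (Cs5g01270), a short model of 426 bases, stood at 8.87 RPKM in light drought and 19.1 RPKM in the control (-1.06). Both models of its beta-3 subunit had ratios below 0 without reaching 2-fold on this scale, Cs2g03260 at -0.95 and Cs8g06950 at -0.66. Without the pseudocount, Cs2g03260 was at -1.01, just past 2-fold. The E2 component (Cs7g13170) had a ratio of -0.61. Ratios above 0 belonged to chloroplastic glyceraldehyde-3-phosphate dehydrogenase A (Cs2g14940, 0.77) and the triose phosphate translocator (Cs2g05530, 0.52), both of photosynthetic carbon flow, to a fructose-bisphosphate aldolase (Cs8g08710, 0.35) and to NADP-dependent glyceraldehyde-3-phosphate dehydrogenase (Cs4g01490, 0.23).

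**Figure D4:**
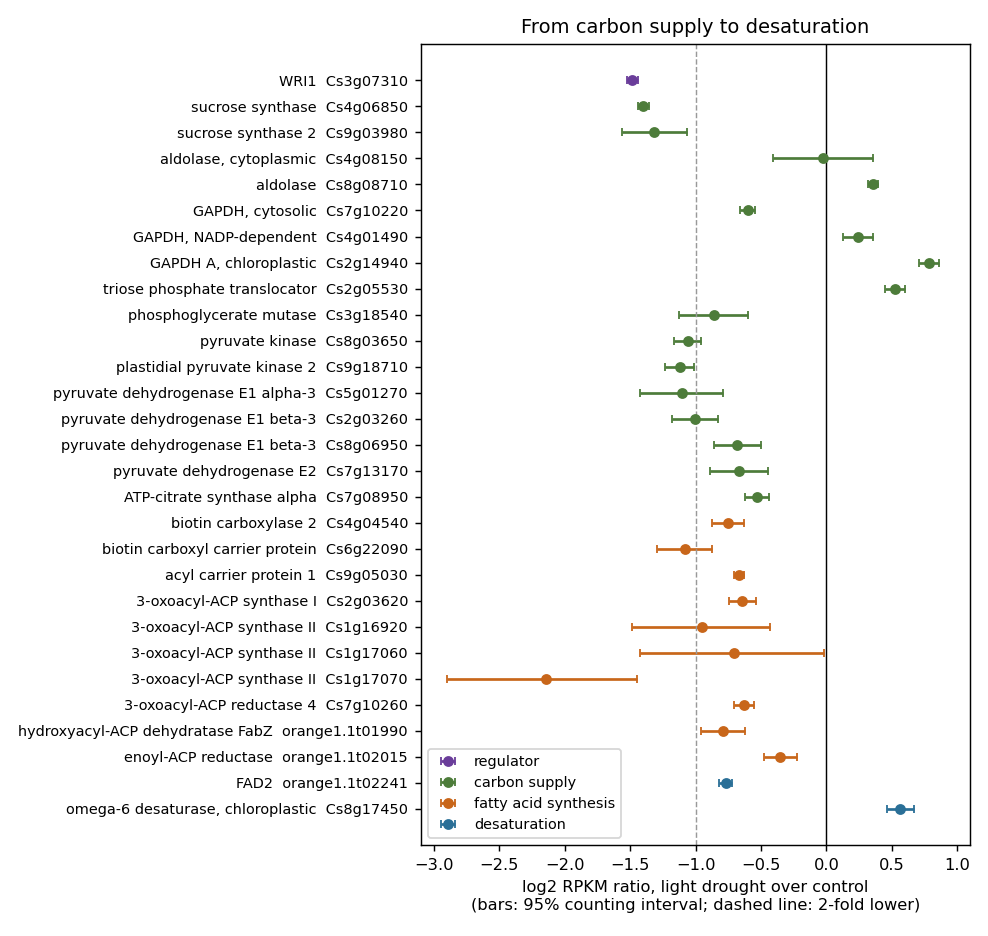
Log2 RPKM ratio of light drought over control, without a pseudocount, for WRI1, 16 carbon supply genes, 10 fatty acid synthesis genes and 2 desaturases, with 95% counting intervals as bars. Left of the dashed line of a 2-fold fall lie WRI1, both sucrose synthases, both pyruvate kinases and pyruvate dehydrogenase E1 alpha-3. So do the E1 beta-3 model Cs2g03260, the biotin carboxyl carrier protein and the synthase II model Cs1g17070. To the right of 0 lie 5 genes, among them the chloroplastic omega-6 desaturase with its interval from 0.46 to 0.67.

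Other genes described as chloroplastic mostly had higher levels in light drought. Like all named genes, they come only from the deposited table of differential genes. With the members and the fatty acid synthase and carbon supply lists left out, 156 such genes were kept, of which 132 had ratios above 0, with a median of 0.49. Of the 6 chloroplastic genes in the carbon supply list, 4 had ratios below 0 and 2 above. With nothing left out, 169 chloroplastic genes were kept, of which 35 had ratios below 0 and the rest above, with a median of 0.47. Of the 156, 16 had a ratio as low as that of enoyl-ACP reductase or lower. The 10 genes of the fatty acid synthase and acetyl-CoA carboxylase list (8 members, the carrier protein and the biotin carboxyl carrier) all had ratios below 0, with a median of -0.69. Of these 10, 2 fell by 2-fold, against 15.1% of named kept genes. The contrast with other chloroplastic genes was set up after the values were seen. Since 8 of the 10 are members chosen with their values known, nothing is read from it.

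Downstream of the plastid the named genes were few. In the elongation, cutin and wax list, 3 of 4 fell by 2-fold, against 15.1% of named kept genes, with 20 to 68 reads each in light drought. These were a 3-ketoacyl-CoA synthase (Cs4g06430, log2 ratio -1.58), which lengthens chains, cytochrome P450 77A3 (orange1.1t01519, -1.55), and long chain acyl-CoA synthetase 1 (orange1.1t01720, -1.27), which activates fatty acids for surface lipids. Very-long-chain enoyl-CoA reductase (Cs7g23820) had a ratio of 0.70. In the oil list, oleosin 1 (orange1.1t03751), a coat protein of oil bodies, stood at 4.87 RPKM in light drought and 6.62 RPKM in the control. Seipin-2 (Cs2g04340), of oil body formation, had a ratio of -0.68, from 33 reads in light drought and 59 in the control. A 1-acyl-sn-glycerol-3-phosphate acyltransferase (Cs4g10970), of glycerolipid assembly, stood at 1.48 RPKM in light drought and 0.573 RPKM in the control, from 60 reads in light drought and 24 in the control. Its log2 ratio was 0.89 with the pseudocount and 1.37 without it, so it passed 2-fold only without the pseudocount, and the other 2 genes of the list stayed under 2-fold on both scales.

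In the breakdown list, 3 of 5 genes were kept and none reached 2-fold. The abundant linoleate 13S-lipoxygenase 2-1 (orange1.1t03773), which oxidises linoleate and linolenate, stood at 278 RPKM in light drought and 486 RPKM in the control (-0.80). A second model of that description (orange1.1t04376) had a ratio of 0.36. Triacylglycerol lipase 2 (Cs2g25040) stood at 29.7 RPKM in light drought and 19.6 RPKM in the control (0.59). A gene with a deposited desaturase domain and no name (Cs1g12430) had a ratio of 0.35.

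Among regulators named beside WRI1, ABSCISIC ACID-INSENSITIVE 5 (Cs6g14970), of abscisic acid response in seeds and seedlings, fell to 0.323 RPKM in light drought, against 3.59 RPKM in the control (-2.31). It had only 12 reads in light drought and 138 in the control. Without the pseudocount its log2 ratio was -3.47, with a counting interval from -4.46 to -2.62. ANT (Cs1g21310), an organ growth regulator of the AP2 family, fell to 0.577 RPKM in light drought, against 3.91 RPKM in the control (-2.04). Its reads were 47 in light drought and 330 in the control. The log2 ratio without the pseudocount was -2.76, with a counting interval from -3.24 to -2.32. ABSCISIC ACID-INSENSITIVE 5-like protein 1 (Cs8g15050) had a ratio of 0.18, with a counting interval from -0.11 to 0.55. LEC1, LEC2, FUS3 and ABI3, the seed regulators known upstream of WRI1 in Arabidopsis, had no match among the deposited descriptions.

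Most ratios of the bud, seed, surface and vascular markers lay below 0, and most of the green tissue markers above 0. The part of tissue content in the results was not tested. Among all named kept genes, 15.1% fell by 2-fold, 5.77% rose by 2-fold and 57.2% had ratios below 0. Of 7 kept bud and young leaf markers (YABBY, expansin and D-type cyclin genes), all had ratios below 0 and 4 fell by 2-fold, and the summed level of the 10 matched genes was 340 RPKM in light drought and 542 RPKM in the control. Most of that sum was 1 expansin-A1 gene (Cs5g10820), and the other 9 summed to 10.2 RPKM in light drought and 22.3 RPKM in the control. The seed and embryo list matched vicilin-like, late embryogenesis abundant and oleosin genes. Of its 8 kept genes, 7 had ratios below 0 and 4 fell by 2-fold. Its 9 matched genes summed to 6010 RPKM in light drought and 4215 RPKM in the control, almost entirely from Lea5 (Cs9g04210). The other 8 summed to 55.4 RPKM in light drought and 130 RPKM in the control. Lea5 ranked 3rd of all genes in light drought and 4th in the control. Whether these genes mark seed tissue in a stem was not tested. Surface markers summed to 154 RPKM in light drought and 245 RPKM in the control over 10 genes, with 7 ratios below 0, 3 falls and 2 rises of 2-fold. Non-specific lipid-transfer protein 2 (Cs6g18330) made the difference between these sums, since the other 9 summed to 61.8 RPKM in light drought and 61.9 RPKM in the control. Green tissue markers summed to 188 RPKM in light drought and 154 RPKM in the control, with 9 of 10 ratios above 0. For vascular tissue, the list matched only fasciclin-like and SIEVE ELEMENT OCCLUSION genes. These summed to 18.6 RPKM in light drought and 34.0 RPKM in the control, with 5 of 6 kept ratios below 0 and 1 fall of 2-fold. None of the marker genes was at 0 in either library.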

How the data were processed

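RNA was extracted with TRIzol and stranded mRNA libraries were made from 2 µg of total RNA, per the labels' protocols. Per the submitters' processing notes, Trimmomatic 0.36 was among the tools. No source used here states the genome build, the aligner, the read counter or any use of strand. The authors deposited RPKM for 23159 genes and both libraries. A second table, titled as holding all differential genes, describes 2568 genes. For 820 of them it adds a log2 fold change with its p-value and false discovery rate, as deposited by the authors. Names and domains come only from this table, so every list and every share of named genes rests on genes selected that way.

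Multiplied by exon length, 100% of the RPKM values above 0 came out as whole reads, to within 0.01 read. The log2 ratio used a pseudocount of 0.5 RPKM and so shrinks the change of genes with few reads. Genes with at least 1 RPKM in either library were kept, and 2-fold was the call. Exact conditional 95% intervals came from the recovered reads, which are not independent molecules.

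Names are the first informative deposited description (RefSeq, NR, then UniProt), found for 1540 genes, and lists are text matches to them, so unnamed genes could not enter a list. The members and lists were chosen with earlier results of these data known. The text names all members, up to 4 kept genes of each list by absolute log2 ratio, up to 15 genes annotated to fatty acid biosynthesis or metabolism, and the 3 genes nearest to WRI1. Other genes, among them some further carbon supply genes, the models with the exon run and fatty acid desaturase 4, were named after their values were seen. No sequences are shown. The reference table matched 0 gene identifiers and was not used. The scripts were tested on simulated counts. Intervals came from scipy 1.17.1 with numpy 2.4.6, tables from pandas 2.3.3 and figures from matplotlib 3.10.9, all under Python 3.11.15.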

Additional observations from a re-analysis of the deposited data

How the results depend on the processing

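No paired analysis was possible because light drought and control have 1 library each, which also leaves none to omit. All kept members had ratios below 0 under every setting run. Only the scalings could have changed a sign, since the other settings leave signs as they are. The median of the members moved by less than its counting error. Of 50 ratios of single members under other scalings and pseudocounts, 49 did too. The other was WRI1, at -1.52 with equal sums of RPKM. The number of members that fell, 2 as reported, was 1 at a minimum of 5 RPKM, where the synthase II models drop out. It was 1 with the 3 synthase II models summed into 1 gene, a setting added after seeing the data, since the sum had a ratio of -0.91 with the pseudocount and -1.25 without it. It was 8 at a 1.5-fold threshold and 0 at 3-fold. Over all kept genes, 332 fell and 138 rose as reported. A pseudocount of 0.1 gave 470 falls and 208 rises, and one of 1 gave 204 falls and 88 rises. A minimum of 5 RPKM gave 159 falls and 68 rises, from fewer genes. Thresholds gave 965 and 631 at 1.5-fold, and 77 and 29 at 3-fold. Equal sums of RPKM gave 513 falls and 162 rises, with 16563 genes kept. That setting raised the values of both libraries, while the pseudocount and the minimum stayed fixed and so weighed less. It also moved the median ratio of kept genes from 0.0024 to -0.041. The parts of these changes in the counts were not told apart. The median of the breakdown list, 0.36 over 3 genes, was -0.11 at a minimum of 5 RPKM, where fewer genes are kept. Of the 48 list medians computed with changed settings, 46 stayed within their counting error. Depth limits the synthase II models most, with 21 to 47 reads each in light drought.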
